A study of Mus musculus with 12 samples.

Results

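Exon coverage was compared between backgrounds of sequencing reads prepared from 1000 ng and from 100 ng of total RNA, with the smallest amount of NuGENv2 reads mixed in. The 10 replicates compared were the 5 columns of each background in 1 table, out of 60 such replicates in the 6 tables of the series. D1, the source of all RNA, is a mouse line that the literature describes as dendritic, while the labels name only the line. Every background was an unstranded TruSeq library, in which poly(A) RNA is captured and converted with random primers, and an ERCC control RNA mix had been added to the RNA. The 1000 ng and 100 ng groups each received, on a computer, NuGENv2 reads of listed transcripts drawn from 20M reads of a library made from 2 ng of RNA (M, 1e6 reads). Each group also received its own lists of synthetic transcripts with even coverage, 1 list over a complex and 1 over an endogenous isoform background. The lists of the groups differ, so a difference can come from the list as well as from the RNA input. Nothing in the labels says that the 5 replicates came from separate cultures, so p-values measure only the spread between these libraries, which may be technical.

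A poly(A) library samples fragments of the messenger RNA that survived extraction, capture and amplification. With less RNA fewer distinct molecules enter, so low transcripts are sampled less evenly and duplicates of the same molecule become more common. Coverage is usually read along the gene, because capture at the poly(A) tail favours the 3′ end. Dendritic cells take up antigen through lectin receptors and sense microbial and inflammatory signals, and the table holds a few genes of that kind.

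The table covers 58 gene models, cut into 925 exon bins (stretches of exon that do not overlap), and no wider transcriptome. Of 17 dendritic cell markers, 2 were in it, Sirpa and Mgl2, and none of the markers listed for macrophages, T cells, B cells, NK cells or fibroblasts had a model, so the cell type could not be checked further. NuGENv2 reads were listed for 21 models (called kit-read models here), synthetic transcripts for 33, and 4 models were on no list. Each 1000 ng replicate held between 347941 and 558561 reads in bins, and each 100 ng replicate between 237258 and 417019. Synthetic models held most of them, between 61.5% and 80.3% of reads per replicate at 1000 ng and between 62.4% and 82.1% at 100 ng. Levels are given in FPKM equivalents, reads per kilobase of bin scaled by median-of-ratios size factors to the library total inferred for 100 ng replicate 5, and log2 fold changes are 1000 ng minus 100 ng on log2(level + 1). Antisense transcripts cannot be told apart in unstranded reads.

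The closest view of native RNA came from bins of models without listed synthetic transcripts. These bins gained no read when the NuGENv2 source grew from 20M to 40M and 80M reads. There were 176 such bins, 110 in 15 kit-read models and 66 in the 4 models of no list, and 175 could be tested. The 66 count as native by the lists alone, and their replicates spread far more than those of the 110, as given below. A NuGENv2 read that was in a bin at 20M and had no further gain could not be seen this way. Nor could a synthetic read, since synthetic models gained no read between these sources, so its absence rests on the lists alone. Of 80 listed transcripts, 78 were in the table. The sequences of the 3 most highly covered coding bins among those of kit-read models that matched an annotated exon show what was measured. They are reference sequence of NCBIM37 (mm9), 5′ to 3′ on the strand of the gene, from a Cyth4 exon (chr15:78450219-78450373, plus strand), a Nono exon (chrX:98640634-98640673, plus strand) and a Copa exon (chr1:174048384-174048452, plus strand).
Cyth4 E018: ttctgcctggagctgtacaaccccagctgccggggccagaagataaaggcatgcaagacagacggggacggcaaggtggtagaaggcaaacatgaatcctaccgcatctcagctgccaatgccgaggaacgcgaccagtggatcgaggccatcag
Nono E012: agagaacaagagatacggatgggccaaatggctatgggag
Copa E033: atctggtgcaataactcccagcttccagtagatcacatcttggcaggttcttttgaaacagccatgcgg

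In all 3 of these exons the backgrounds overlapped. Cyth4, a guanine exchange factor for Arf GTPases of blood cells, measured 193, 204, 194, 193 and 189 FPKM equivalents in bin E018 at 1000 ng and 183, 173, 219, 196 and 176 at 100 ng. Its 100 ng replicates spread on both sides of the 1000 ng values, and the log2 fold change was 0.04 with a 95% interval from -0.14 to 0.22. Nono, an RNA-binding protein of nuclear paraspeckles, measured 111, 104, 97.1, 118 and 94.8 in bin E012 at 1000 ng and 102, 110, 95.3, 92.7 and 91.2 at 100 ng. Its log2 fold change was 0.10, with an interval from -0.10 to 0.30. Copa, the alpha subunit of the COPI coat of Golgi vesicles, measured 80.7, 77.5, 75.5, 86.8 and 69.6 in bin E033 at 1000 ng and 74.1, 71.1, 76.5, 82.4 and 68.8 at 100 ng. Its log2 fold change was 0.06, with an interval from -0.13 to 0.25.

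No native bin passed the test between the backgrounds. By limma with Benjamini-Hochberg adjustment over all 924 bins tested, 0 of 175 native bins passed an adjusted p of 0.05, against 18 of 924 bins in all (1.95%). At an unadjusted p under 0.05 there were 9 native bins, 5.14% of them, against 166 bins in all (18.0%). The 9 were 5 of 110 bins of kit-read models (4.5%) and 4 of 65 bins of models of no list (6.2%). None of the native bins separated all 5 replicates of a background from all 5 of the other, while 55 of the 924 tested bins did (5.95%). The median log2 fold change was 0.04 over native bins and 0.06 over the 110 of kit-read models, with a median standard error of 0.14 in the latter. For 94 of these 110 bins the 95% interval lay inside a 2-fold change, and for 71 it lay inside a 1.5-fold change. For the other bins the data do not exclude such a change.

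**Figure D1:**
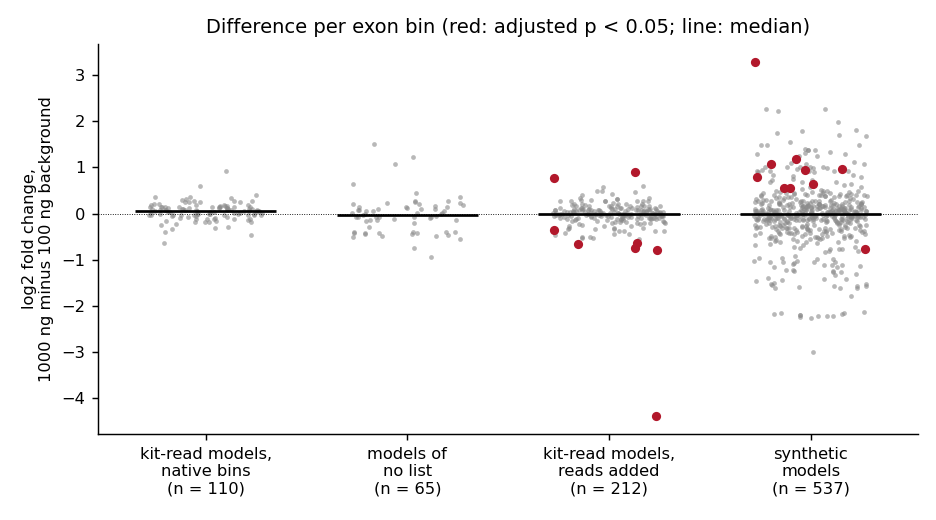
Log2 fold change of each tested exon bin (vertical axis, 1000 ng minus 100 ng background) in 4 classes of bins, with called bins in red and the class median as a line. The 110 native bins of kit-read models and the 65 bins of models of no list hold no called bin, and the 18 called bins lie in models that received reads, 8 in kit-read and 10 in synthetic models.

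Copa gave the longest stretch of native exons, 30 consecutive bins from E010 to E039. Their mean levels spanned from 0.358 to 78.0 FPKM equivalents at 1000 ng and from 0.340 to 74.6 at 100 ng. The log2 fold changes of the 30 bins ran from -0.12 to 0.24 with a median of 0.08, and every 95% interval lay between -0.36 and 0.51, inside a 1.5-fold change. Among bins with little coverage, E024, annotated as untranslated, measured 0.447, 0.412, 0.315, 0.318 and 0.298 at 1000 ng and 0.0625, 0.555, 0.339, 0.467 and 0.276 at 100 ng. In this bin, chosen after its values were seen, the 100 ng replicates ranged more widely than the 1000 ng replicates. The groups overlapped, and a single low bin shows nothing about other bins.

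**Figure D2:**
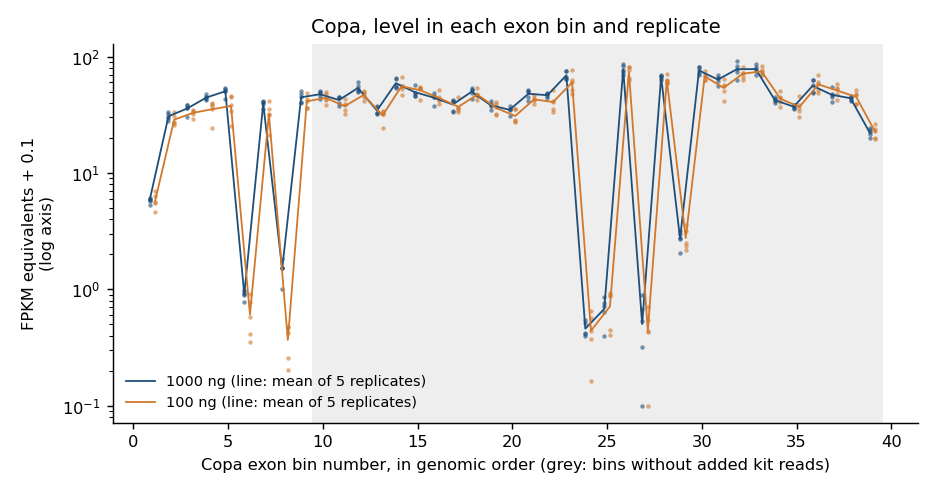
Level of each Copa exon bin (horizontal axis, bin number in genomic order; vertical axis, FPKM equivalents plus 0.1, log axis) with a point per replicate and a line through the mean of 5 replicates of each background. In the shaded native bins E010 to E039 the lines follow each other, while bin E008, which received NuGENv2 reads at 1000 ng, is higher there.

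Among genes of immune sensing, Il18rap, the accessory subunit of the interleukin-18 receptor, had 8 native bins with a median log2 fold change of 0.14, 7 above 0 and 1 below. Its coding bin E012 measured 17.1, 19.4, 15.6, 16.5 and 16.7 at 1000 ng and 15.0, 17.5, 18.0, 15.3 and 14.1 at 100 ng. The groups overlap there. Rhbdd3, a rhomboid family protein, had 9 native bins with a median of -0.11. Cyth4 had 3 with a median of -0.01.

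Birc3, an inhibitor of apoptosis protein that acts as a ubiquitin ligase in NF-kB signalling, held both native bins of kit-read models with the lowest and the highest fold change. Bin E011 had a log2 fold change of -0.64 (adjusted p = 0.0891) on 8, 19, 5, 6 and 7 reads at 1000 ng and 9, 8, 27, 11 and 9 at 100 ng. Bin E013 had 0.93 (adjusted p = 0.138) on 2, 3, 3, 1 and 1 reads against 0, 0, 2, 1 and 0. Both rest on few reads, and the other 6 native bins of Birc3 measured between 0.02 and 0.30.

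Genes of other roles gave like values. Ccnh, the cyclin of the CDK-activating kinase, had 4 native bins with a median of 0.00. Elp2, a subunit of the Elongator complex that modifies transfer RNA, had 2 with 0.15. Dhps, which makes the hypusine residue of translation factor eIF5A, had 5 with 0.10. Fbf1, a component of ciliary appendages, had 19 with -0.04, and these were less precise, with a median standard error of 0.28 against 0.10 in Copa. Nono had 5 with 0.09 and Kcnn4, a calcium-activated potassium channel, 3 with -0.09.

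Over 25 native kit-read bins of 8 models that matched an annotated exon and had 20 reads in every replicate, Pearson's r of fold change and GC content was -0.10 and Spearman's rho -0.20. The bins share libraries and genes, and the values are a description. The 13 bins at or above the median GC content of 49.4% had a median log2 fold change of 0.05, and the 12 below it 0.12.

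The spread between replicates was set against counting error in native exons of kit-read models. A dispersion index, the chi-square of the 5 read counts around their size-factor expectation divided by its 4 degrees of freedom, has a median of 0.839 under counting error alone. Its median was 0.920 over 81 native kit-read bins with 50 or more reads at 1000 ng and 1.28 over 76 at 100 ng. The median SD of log2 levels was 0.14 and 0.19. The difference between these medians was not tested. Depth differed too, with size factors from 0.89 to 1.94 at 1000 ng and from 0.64 to 1.44 at 100 ng. 100 ng replicates 1, 2 and 5 were shallower than every 1000 ng replicate, and replicates 3 and 4 were not. Over the 51 native kit-read bins with 20 reads in every replicate, pairs of replicates differed by a mean of 0.13 on the log2 scale within 1000 ng (0.07 to 0.17 over 10 pairs), 0.18 within 100 ng (0.13 to 0.25 over 10 pairs) and 0.16 between backgrounds (0.10 to 0.24 over 25 pairs). The range of pairs between backgrounds overlaps both ranges within a background, and none of its pairs exceeds the largest inside the 100 ng background.

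The 4 models of no list were less even. Their median dispersion index was 8.14 at 1000 ng and 34.8 at 100 ng. It was 10.6 and 5.37 in bins of synthetic models, and 0.920 and 1.28 in native bins of kit-read models. Whether the models of no list hold synthetic reads was not tested. Tom40, the pore of the mitochondrial import complex, measured 15.5, 14.9, 15.0, 14.3 and 14.0 FPKM equivalents over the whole model at 1000 ng and 14.5, 15.4, 17.9, 15.2 and 13.4 at 100 ng, a narrow range in both. Sin3b, a scaffold of histone deacetylase complexes, measured 21.5, 39.0, 45.7, 52.0 and 63.2 at 1000 ng and 77.0, 55.0, 38.4, 39.7 and 59.5 at 100 ng. Its replicates ranged widely in both backgrounds and overlapped. In 23 of its 23 bins the fold change was below 0 (median -0.42), and none was called.

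Parg, which removes poly(ADP-ribose), measured 46.9, 40.9, 37.3, 35.5 and 45.7 at 1000 ng and 62.1, 36.0, 16.1, 34.0 and 54.4 at 100 ng. Phospho2, a phosphatase, measured 16.7, 19.4, 28.8, 13.5 and 20.5 against 16.8, 24.4, 9.05, 13.8 and 24.9. The totals of the 4 models had adjusted p-values of 0.804, 0.576, 0.804 and 0.804 for Tom40, Sin3b, Parg and Phospho2. The native bin nearest to the threshold was Parg E022, with 19.2, 16.9, 9.59, 13.8 and 18.8 FPKM equivalents at 1000 ng and 3.88, 9.11, 4.94, 4.19 and 9.60 at 100 ng. The groups touch at 1000 ng replicate 3 and 100 ng replicate 5, and the log2 fold change of 1.22 (SE 0.28) had an adjusted p of 0.0578. With upper quartile scaling, which raised the median of all bins to 0.14, it had 1.39 and an adjusted p of 0.0306, the sole native call under any setting tried.

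**Figure D3:**
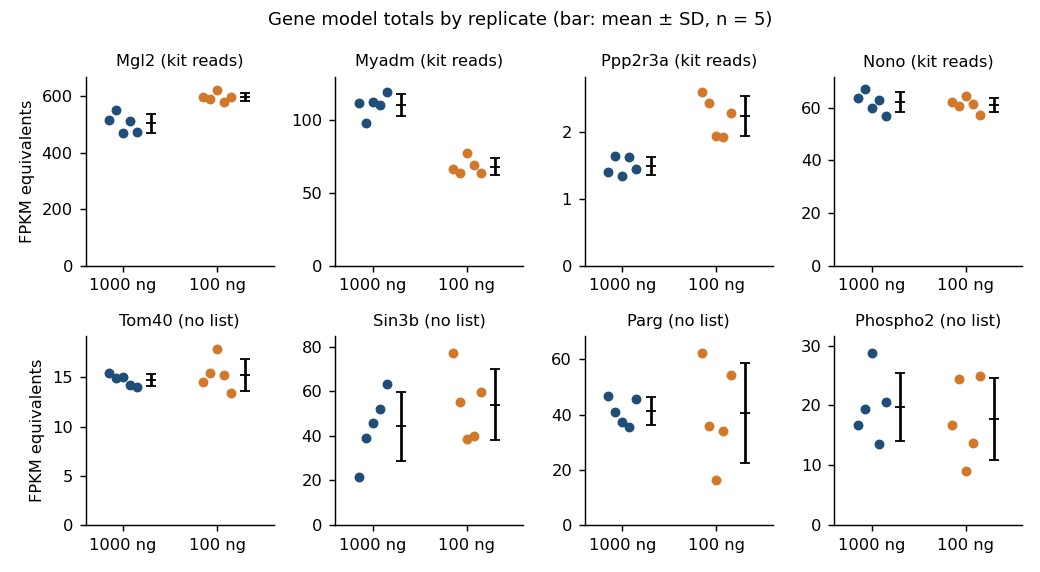
Level of 8 gene models (vertical axis, FPKM equivalents over all bins) in each of 5 replicates per background, with the mean and SD beside them. Mgl2, Myadm and Ppp2r3a separate by background, Nono and Tom40 overlap closely, and Sin3b, Parg and Phospho2 range widely in 1 or both backgrounds.

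Coverage along the gene, detection and the concentration of reads gave no difference that passed the test. These 3 values per replicate were compared by exact two-sided permutation of the 10 replicates, whose smallest possible p is 0.00794, with adjustment over the 3. The median over 23 models of the log2 ratio of coverage in the 3′ part to the 5′ part of the exonic length, split at its midpoint, was 0.30 ± 0.02 (SD, n = 5) at 1000 ng and 0.42 ± 0.12 at 100 ng. The 1000 ng replicates measured 0.30, 0.26, 0.32, 0.32 and 0.30, and the 100 ng replicates 0.41, 0.52, 0.46, 0.22 and 0.50. 100 ng replicate 4 was the lowest of all 10 and the other 4 were the highest, with exact permutation p = 0.0556 (adjusted 0.167). Leaving out that replicate, the only 100 ng value below those at 1000 ng, separated the groups completely. The difference then went from -0.12 to -0.17. The adjusted exact permutation p of 0.0238 followed from which replicate was left out, and it is not counted as a pass. Complete separation gives the smallest p that 5 against 4 replicates can have. Over native bins alone the difference was 0.11, and over all models with enough reads 0.13, both in the other direction. The adjusted p was 0.476 and 0.0714 by the same exact permutation test.

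Sirpa, the CD47 receptor, which received NuGENv2 reads at 100 ng only (669 reads gained from 20M to 40M), had a log2 ratio from 0.20 to 0.32 at 1000 ng and from 0.41 to 0.52 at 100 ng. The median of 23 models is the value of a single model in each replicate, and in 4 of the 5 100 ng replicates it lies within the range of Sirpa. Copa, with NuGENv2 reads in its 5′ bins at 1000 ng, ran from 0.47 to 0.60 and from 0.57 to 0.75. Mgl2 and Myadm, whose last bins received many reads in a single background, moved apart more, with means of -0.97 against -0.41 and 1.69 against 0.99.

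At an equal depth of 237258 reads, 26.9 ± 6.41 bins were expected without reads at 1000 ng and 30.0 ± 6.71 at 100 ng (SD, n = 5, exact permutation p = 0.476, adjusted 0.476). The 1000 ng replicates measured 22.6, 19.0, 32.6, 26.2 and 34.0, and the 100 ng replicates 32.0, 30.9, 21.6, 26.2 and 39.5, which overlap. The 5 largest models took 53.3% ± 8.60 of the reads at 1000 ng and 48.7% ± 7.22 at 100 ng (SD, n = 5, exact permutation p = 0.373, adjusted 0.476).

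**Figure D4:**
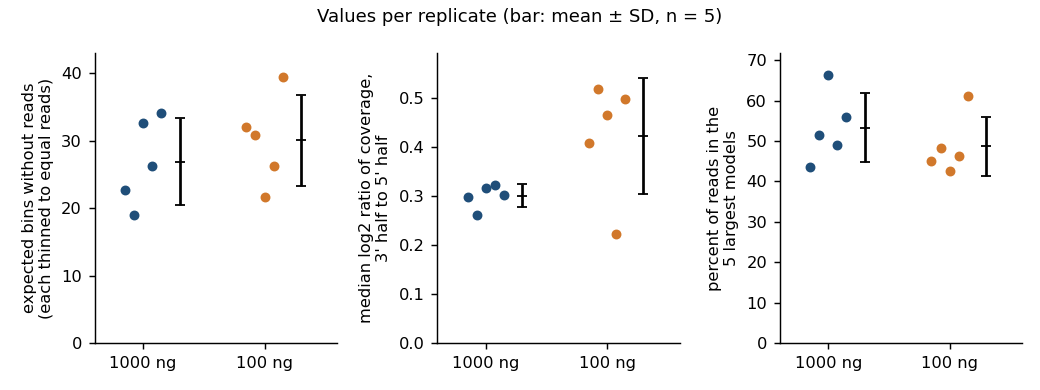
The 3 values per replicate (points) with mean and SD for each background of 5 replicates: expected bins without reads at equal depth, the median log2 ratio of 3′ to 5′ coverage, and the percent of reads in the 5 largest models. The coverage ratio of 4 of the 5 100 ng replicates lies above all 1000 ng replicates, while the other values overlap.

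The 18 called bins lay in 13 models that received reads. By limma, 11 bins were higher at 1000 ng (1.19% of those tested) and 7 at 100 ng (0.758%). Of the 18, 10 belong to models listed for 1 background, and 10 of these 10 were higher in that background. Over all kit-read bins with reads added, 65 of 104 listed for 100 ng only were higher at 100 ng. Of 53 listed for 1000 ng only, 40 were higher at 1000 ng. The 10 were picked by the same test, and 5 of them belong to synthetic models, for which no such share of bins was counted. By totals, 4 of 8 complex and 3 of 3 endogenous synthetic models listed for 1000 ng only were above 0. Of those listed for 100 ng only, 1 of 4 complex, 0 of 6 endogenous and 0 of 1 of both kinds were above 0. The split of directions among called bins depended on scaling. It was 15 higher and 2 lower under total-read scaling, 7 and 16 under native scaling, and 31 and 3 under upper quartile scaling. In 17 of the 18 bins the backgrounds did not overlap, against 55 of all 924 bins tested (5.95%). The 18 were picked by a test on the same values, which favours such separation. Only 6 of the 18 bins stayed called whichever replicate was left out, namely Hdh E034, Mgl2 E012, Mgl2 E013, Myadm E007, Copa E008 and Ppp2r3a E001.

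Mgl2, a galactose-binding lectin receptor of macrophages and dendritic cells on chromosome 11 from 69943831 to 69951052, is listed for NuGENv2 reads at 100 ng. Its last bin, E013, held 17, 23, 8, 16 and 9 reads at 1000 ng and 212, 209, 230, 224 and 208 at 100 ng. The 100 ng replicates gained 190 reads each in this bin from 20M to 40M. The level was 96.4 ± 24.5 against 2074 ± 649 FPKM equivalents (SD, n = 5). Its log2 fold change was -4.39, with SE 0.26 and an adjusted p of 2.32e-05 by limma. The same reads were added to each replicate, so the scaled value runs against depth, with 2626 in 100 ng replicate 2 (size factor 0.64) and 1286 in 100 ng replicate 3 (size factor 1.44). SE and p therefore do not measure error in the added reads, here or in other bins that received such reads.

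Bin E012 of Mgl2 measured 278, 303, 254, 275 and 257 at 1000 ng and 486, 509, 445, 424 and 507 at 100 ng (log2 fold change -0.79, adjusted p = 0.00199). Its other 11 bins lay between -0.18 and 0.10, and none was called. The largest of these, E003, measured 7788 and 7704 on average. Over the whole model Mgl2 measured 504 ± 33.2 and 597 ± 15.5 (log2 fold change -0.25, SE 0.05, adjusted p = 0.0200), a call that was lost without 1000 ng replicate 3 and without 100 ng replicate 1, 2, 3 or 5.

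Myadm, a membrane protein of myeloid cells on chromosome 7 from 3289039 to 3299346, is listed for NuGENv2 reads in both backgrounds, by the same transcript. Its total measured 111, 97.7, 112, 110 and 119 at 1000 ng and 66.3, 63.1, 76.8, 69.1 and 63.2 at 100 ng. Every 1000 ng value was above every 100 ng value (log2 fold change 0.69, SE 0.07, adjusted p = 0.000232). Bin E007, the last, carried the difference, with 131 ± 9.79 against 76.4 ± 6.29 (SD, n = 5), and gained 3682 reads from 20M to 40M at 1000 ng and 0 at 100 ng. The other 5 bins of Myadm lay between -0.06 and 0.19, with none called.

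Ppp2r3a, a regulatory subunit of protein phosphatase 2A on chromosome 9, measured 1.39, 1.63, 1.34, 1.62 and 1.44 at 1000 ng and 2.59, 2.42, 1.93, 1.92 and 2.28 at 100 ng. The groups did not overlap (log2 fold change -0.38, SE 0.07, adjusted p = 0.0145), and the call was lost without 100 ng replicate 2. Its bin E001 gained 98 reads at 100 ng and 0 at 1000 ng, and was called at -0.75 (adjusted p = 0.0112). Its 3 native bins measured between 0.13 and 0.31, on the other side of 0, and none was called.

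These 3 were the models whose totals passed, 3 of 58 (5.17%), and 5 of 58 totals separated the backgrounds completely (8.62%), the others being Tmem62 and the model of uc012hbj.1. With scaling by native bins 13 totals passed. With total-read scaling none of these 3 totals passed (adjusted p = 0.274 for the Myadm total, 0.979 for the Mgl2 total and 0.87 for the Ppp2r3a total), and 3 others did. Copa E008, annotated as untranslated (chr1:174022486-174023691), measured 1.44, 0.912, 1.72, 1.43 and 1.42 at 1000 ng and 0.376, 0.156, 0.371, 0.324 and 0.104 at 100 ng (log2 fold change 0.91, adjusted p = 0.00362), and gained 36 reads at 1000 ng only. Nono E001 was called at -0.64, Fbf1 E026 at -0.67 and Fxyd5 E013 at -0.35, each with an adjusted p of 0.0413. Fxyd5 encodes a regulator of the sodium pump and is listed for NuGENv2 reads of uc009gho.2 at 1000 ng and of uc009ghp.2 at 100 ng. Fxyd5 E013 gained 23 reads at 1000 ng and 37 at 100 ng, and measured 76.9 ± 3.76 and 98.4 ± 5.24.

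The reads gained between 20M and 40M were taken off each bin, as an alternative chosen after seeing the data, which assumes that the first 20M source reads brought as many reads as the next. The gain per source read was near even in some models and not in others. From 20M to 40M and from 40M to 80M, Mgl2 gained 3388 and 6477 reads at 100 ng, and Fxyd5 1146 and 8070 at 1000 ng. Whether the assumption holds for the first 20M was not tested. The median size of the log2 fold change over the 8 called kit-read bins went from 0.76 to 0.11. Mgl2 E012 measured -0.09, Myadm E007 0.08, Copa E008 0.05, Nono E001 -0.10 and Ppp2r3a E001 -0.12. Fxyd5 E013 (-0.30) and Fbf1 E026 (-0.44) moved less and were not called. Mgl2 E013 remained called at -1.29 (adjusted p = 0.0214), as did Hdh E034 of a synthetic model (0.64, adjusted p = 0.0359), and no other bin was called. The other 9 called bins of synthetic models kept their fold changes, since no reads were taken off them, with adjusted p-values between 0.0703 and 0.0763. The totals of Mgl2 and Ppp2r3a measured 0.01 each, and no total was called.

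**Figure D5:**
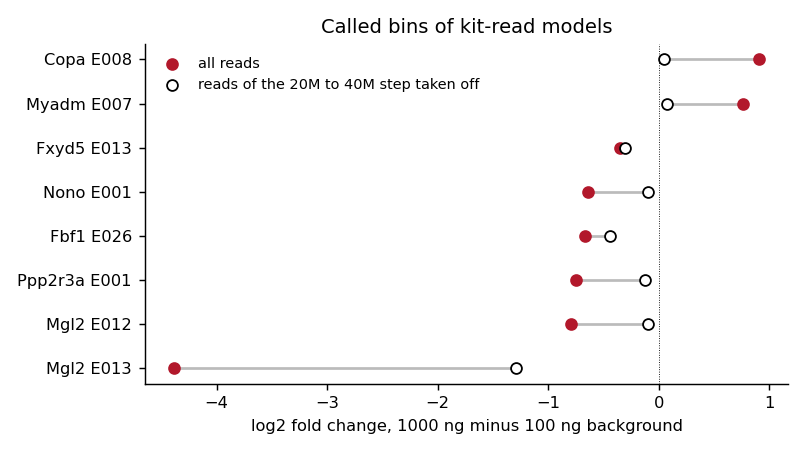
Log2 fold change (horizontal axis, 1000 ng minus 100 ng) of the 8 called bins of kit-read models with all reads (filled) and after reads equal to the gain from 20M to 40M were taken off (open). After that, 5 of the 8 lie within 0.15 of 0, and Mgl2 E013 stays at -1.29.

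The 10 called bins of synthetic models gained no NuGENv2 reads. The coding bins among the called bins that matched an exon in full and were at most 300 bases long are shown because their reads differ between backgrounds in protein-coding sequence. They lie in Hdh (chr5:35191380-35191458, plus strand), Dvl3 (chr16:20525979-20526055 and chr16:20530850-20531065, plus strand) and, among kit-read models, Fbf1 (chr11:116019003-116019141, minus strand).
Hdh E034: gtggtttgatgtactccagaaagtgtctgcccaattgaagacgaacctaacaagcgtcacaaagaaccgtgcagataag
Dvl3 E013: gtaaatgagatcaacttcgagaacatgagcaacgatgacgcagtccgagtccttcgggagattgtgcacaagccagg
Dvl3 E018: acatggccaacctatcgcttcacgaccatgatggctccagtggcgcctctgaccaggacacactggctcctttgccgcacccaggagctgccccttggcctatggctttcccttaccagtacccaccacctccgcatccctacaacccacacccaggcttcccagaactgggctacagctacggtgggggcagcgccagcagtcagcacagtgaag
Fbf1 E026: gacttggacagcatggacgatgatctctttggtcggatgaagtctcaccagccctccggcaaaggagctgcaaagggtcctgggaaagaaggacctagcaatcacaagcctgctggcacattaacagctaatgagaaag

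Hdh, the huntingtin gene, is listed for synthetic transcripts at 1000 ng. Bin E034 measured 16.1, 20.7, 18.8, 21.7 and 17.9 at 1000 ng and 12.3, 12.1, 11.1, 10.9 and 12.8 at 100 ng, without overlap (log2 fold change 0.64, SE 0.10, adjusted p = 0.0112). Dvl3, a signal transducer of the Wnt pathway, had 4 called bins, E013, E015, E018 and E019, between 0.94 and 1.19. It is listed in both backgrounds by different synthetic transcripts, uc007ypw.1 and uc007ypx.1 at 1000 ng and uc007ypv.1 at 100 ng. E018 measured 23.5, 15.7, 33.9, 20.9 and 26.8 at 1000 ng and 9.75, 10.5, 10.9, 8.79 and 13.1 at 100 ng, with every 1000 ng replicate above every 100 ng replicate. Fbf1 E026 measured 1.87, 2.56, 2.07, 2.09 and 1.31 against 4.51, 3.64, 3.04, 3.30 and 4.07, on 4 to 17 reads.

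Atg16l1, which directs lipidation of LC3 in autophagy, had a called bin E012 at 3.29 (SE 0.66, adjusted p = 0.0413) with 9.41, 37.9, 49.4, 95.8 and 96.9 at 1000 ng and 2.41, 5.35, 1.78, 2.08 and 10.6 at 100 ng. Here 1000 ng replicate 1 falls below 100 ng replicate 5. Atg16l1 is listed in both backgrounds by different synthetic transcripts, uc007bxm.1 at 1000 ng and uc007bxi.1 at 100 ng. Mmgt2, a membrane magnesium transporter, had E006 and E008 called at 0.55 each. Prmt10, an arginine methyltransferase, had E008 called at 0.80 and Rcbtb2 had E002 called at -0.77. The totals of Mmgt2 (-0.18) and Prmt10 (-0.09) went against their called bins and that of Rcbtb2 (-0.16) with its bin, and none passed. Calls of Atg16l1, Mmgt2, Prmt10, Rcbtb2 E002 and the Dvl3 bins E013 and E015 each survived leaving out 1 of the 10 replicates and were lost with any of the other 9 left out.

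The largest differences of totals in synthetic models did not pass the test with the scaling used here. Toward 100 ng they included Tmem62 (-2.17), Slc25a35 (-1.44), Trm1l (-0.73) and Evi5l (-0.70), and toward 1000 ng Tmco6 (1.27), 2810002N01Rik (1.17), Dvl3 (0.51) and Bbs9 (0.47), with Myadm between these. Tmem62 measured 189, 6.69, 175, 126 and 181 at 1000 ng and 659, 605, 194, 296 and 465 at 100 ng, without overlap and with an adjusted p of 0.137. Under total-read scaling the Slc25a35 total, the Tmco6 total and the Tmem62 total passed, each with an adjusted p of 0.0436, and the Tmco6 total passed as deposited (0.0142) and with upper quartile scaling (0.0318) as well. Without 1000 ng replicate 2 the Tmco6 total also passed (1.48, adjusted p = 0.0464), and the Tmem62 total had a log2 fold change of -1.28 with an adjusted p of 0.0465. The Dvl3 total passed in that setting too (adjusted p = 0.0276), and the Evi5l total passed with scaling by native bins (0.0356) and without 1000 ng replicate 5 (0.0397). The median SD of log2 totals over synthetic models was 0.45 at 1000 ng and 0.39 at 100 ng, against 0.08 and 0.10 over kit-read models. The models of highest mean level included 2810002N01Rik, Mgl2, Tmem62 and Aes, at 731, 551, 290 and 216 FPKM equivalents. Aes, a Groucho family corepressor, had a total log2 fold change of 0.03.

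Use of single bins within a model, tested with diffSplice of limma, differed in 17 of 58 models (29.3%), of which 9 were kit-read models, 8 synthetic models and 0 models of no list. The test treats bins of a replicate as independent, which makes its p-values too small. The 10 of smallest adjusted p were Mgl2, Copa, Rcbtb2, Atg16l1, Nono, Fxyd5, Dvl3, Rnf130, Myadm and Aes. In Mgl2, E013 stood 4.29 below the rest of the model on the log2 scale. In Copa it was E008, 0.81 above. In Dvl3, bin E003 stood 1.59 below the rest and measured 1.33 ± 0.48 at 1000 ng and 3.77 ± 1.37 at 100 ng (SD, n = 5). In Rnf130, a ubiquitin ligase, bin E012 stood 2.74 above, with 25.0 ± 18.2 against 3.45 ± 1.97. Dvl3, Atg16l1 and Rnf130 (uc007irn.1 at 1000 ng, uc007irk.1 at 100 ng) are listed in both backgrounds by different synthetic transcripts. Bin use in their RNA cannot be told apart from the isoforms added. With total-read scaling 8 models passed.

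By gene list, innate immune receptors and signalling had 1 of 7 totals higher at 1000 ng (Myadm) and 1 higher at 100 ng (Mgl2), with a median log2 fold change of -0.03. Over all 58 models 1 total was higher at 1000 ng and 2 at 100 ng, with a median of -0.03. Il18rap, Birc3, Rhbdd3, Cyth4 and Sirpa did not pass. The list of mitosis and phosphatase 2A regulators had 1 of 3 higher at 100 ng (Ppp2r3a), the other of the 2 of 58. None of the 3 apoptosis, 3 autophagy and vesicle, 2 phospholipase, 2 Wnt and Groucho, 2 chromatin repressor, 3 cilium, 2 transfer RNA modification and 2 actin genes passed, nor did Gas5, a host of small nucleolar RNAs, at -0.03.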

How the data were processed

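Per the submitters' processing notes, which give no versions, STAR, Cuffdiff and mm9 were used. The counting of reads per bin is not given in the sources here. The deposited values are a coverage signal, reads in an exon bin divided by its length in bases, which was inferred from the values. Columns were not divided by library size, except that the fifth 100 ng column was divided further by 16.02, read as its library total in 1e6 reads. Multiplying back gave whole reads for 100% of values within 0.001 reads, which for the other columns follows from how lengths were found. Of 1744 rows 818 were repeats, and 1 of the 926 left was not finite. Bins were numbered in genomic order, and 471 were placed on NCBIM37 (mm9) with GENCODE vM1 by their lengths.

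Reads were scaled by median-of-ratios size factors to FPKM equivalents and fitted with limma 3.58.1 in R 4.3.3 on log2(level + 1), 5 against 5 replicates, two-sided, with Benjamini-Hochberg adjustment at 0.05. On this scale low values change less than they would as ratios. Bins of listed models all entered, and bins of the other models entered with a mean of 1 or more. The planned unit was FPKM as deposited, so upper quartile scaling stood in for a count normalization. Bin usage was tested with diffSplice, and single values by exact permutation (scipy 1.17.1). The fits were tested on simulated data. Named genes are models with a called bin or total, the 10 of smallest adjusted p for bin usage, the 5 largest total differences each way, the 5 highest levels and all models of no list; native bins shown in full, Il18rap, Birc3 and Copa E024 were chosen after their values were seen. The members and gene lists were chosen with earlier results of these data known. Alternatives covered scaling, pseudocount, filter, voom, a replicate block and leaving out each replicate. A gene that this rule names is not reported here, and it stayed in the fits and counts.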

Additional observations from a re-analysis of the deposited data

How the results depend on the processing

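With the values as deposited, 0 bins, 1 total and 7 models for bin usage passed (limma, 75 bins at an unadjusted p under 0.05). The 1 was the Tmco6 total (adjusted p = 0.0142), and the Myadm total, the Mgl2 total and the Ppp2r3a total did not pass (0.249, 0.55 and 0.942). That setting, which keeps 100 ng replicate 5 in another unit, raised the median of all bins to 0.19, and the Mgl2 total measured 0.69, the Ppp2r3a total 0.00337, the Nono E001 bin 0.042, the Fxyd5 E013 bin 0.26 and the Mgl2 E012 bin 0.17, all with the other sign and not called. Without that replicate 1 bin (Mgl2 E013), the Tmco6 total (0.0224) and 8 models passed, and the Mgl2 total measured 0.039. Total-read scaling gave 8 models for bin usage and 3 totals, of Slc25a35, Tmco6 and Tmem62, in place of those of Myadm, Mgl2 and Ppp2r3a. Native scaling gave 13 totals, and upper quartile scaling 34 bins, 1 of them native. A mean of at least 5 left 11 bins and voom gave 28. Exact permutation per bin and per model called 0 bins and 0 totals, since 924 and 58 adjusted tests cannot pass easily at its smallest p of 0.00794. With reads of the 20M to 40M step taken off, 2 bins (Hdh E034 and Mgl2 E013) and 0 totals passed, and the Mgl2 total and the Ppp2r3a total turned to 0.014 each. Scaled again, 1 bin (Mgl2 E013) and 0 totals passed. The causes of these changes were not tested.

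Leaving out 1 replicate gave 6 to 24 bins, 1 to 10 totals, 16 to 19 models for bin usage and 0 native bins. Bins fell to 9, 8, 6 and 9 without 1000 ng replicate 1, 3, 4 or 5 and to 6, 6, 6 and 7 without 100 ng replicate 1, 2, 4 or 5. The 10 totals came without 1000 ng replicate 2 and the 1 without 100 ng replicate 2. The difference in 3′ to 5′ coverage ran from -0.17 to -0.10, that in bins without reads from -5.27 to -0.787 and that in the share of the 5 largest models from 1.36 to 7.73 percentage points. A replicate block left 1 bin (Mgl2 E013), 1 total and 20 models for bin usage. The labels give columns the same numbers in both backgrounds without saying that a number marks anything shared. Deviations of same-numbered replicates correlated at -0.03, -0.08, -0.38, -0.11 and 0.09, and 0 of 10 replicates correlated best with their own number. Weak correlations cannot show that such replicates share nothing else, so whether they are paired is unknown. Depth limits bins with few reads most, such as those of Birc3 and Fbf1.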
